A study of Rattus norvegicus with 8 samples.

Results

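The tissue macrophage genes examined here are 10 genes that are in common use as markers of resident macrophages: Csf1r, Adgre1, Aif1, Cd68, Lyz2, Cd163, Mrc1, C1qa, C1qb, and C1qc. They were taken from the count table of the rat thyroid by gene symbol. All 10 symbols were found among 30560 genes, which are represented by 54991 transcripts. Each gene was represented by its transcript with the highest summed count. All 10 members passed the filter on low counts in every comparison.

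The samples were thyroids of 8 male Wistar rats, 2 in each of 4 groups. Rats of the 1w4Gy and 4m4Gy groups had received 4 Gy of X-rays to the neck at 1 week or 4 months of age, while those of the 1w0Gy and 4m0Gy groups were sham-exposed at the same ages, and all thyroids were removed about 8 weeks later. No group carried a transgene or another treatment, and each library came from a different rat whose RNA was chosen for its higher integrity score. Because the interval was the same at both ages, the 4m rats were also older at necropsy and were not littermates of the 1w pups, so age at exposure, age at necropsy, and cohort cannot be told apart. The study compared sham with irradiated thyroids at each age to find genes whose expression was changed only by neonatal exposure.

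Macrophages settle in nearly every organ before birth and are maintained by colony-stimulating factors that act through the receptor CSF1R. In endocrine tissue they lie in the connective tissue between the epithelial follicles and along vessels, where they take up dying cells, iron complexes, and glycoproteins. They are also the main source of C1q outside the blood, the recognition protein that starts the classical complement pathway.

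The 8 libraries held 14835406 to 18138106 counts on genes, and the median was 16180961. Thyroglobulin alone took 18.5% to 21.3% of the counts. The members were weakly covered in comparison, and a single member had between 49 and 2214 counts in a sample. One library stood apart in its parathyroid markers. The summed TPM (length-scaled transcript abundance) of the 3 genes was 386 in 4m4Gy replicate 2 and 2522 to 7054 in the other libraries. Skeletal muscle markers also varied between libraries, with sums from 2.29 TPM in 1w4Gy replicate 2 to 40.9 TPM in 1w0Gy replicate 2. Of the epithelial markers, all 8 thyrocyte genes were present in every library, with summed TPM of 21626 to 26251.

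The bases before the transcription start of the members are shown because the genes belong to 1 cell lineage while lying on different chromosomes, apart from the C1q genes. RefSeq windows of the rat assembly GRCr8 were given for 8 of the 10 members, and those of Aif1 and C1qc were not among them. The motif searched was GAGGAA, read on both strands, which is the core bound by the myeloid transcription factor PU.1, encoded by Spi1. It was present in the 250 bases upstream of 6 of the 8 members, compared with 23.3% of all 33469 windows. In the last 100 bases it was present in 5 of the 8 and in 9.78% of all windows. TATAAA, the letters of a TATA box, was present in the 250 bases of 0 of the 8 members and of 12.9% of all windows. The last 100 bases before the start of 5 members are given below on the strand of the gene, from 5′ to 3′. GAGGAA, or TTCCTC where it lies on the opposite strand, is in capitals. C1qa is shown beside its neighbour C1qb as a window without the motif.
Lyz2, chr7:54798012-54798111, minus strand: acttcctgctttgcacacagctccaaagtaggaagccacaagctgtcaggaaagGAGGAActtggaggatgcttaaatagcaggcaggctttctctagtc
Cd68, chr10:54882442-54882541, minus strand: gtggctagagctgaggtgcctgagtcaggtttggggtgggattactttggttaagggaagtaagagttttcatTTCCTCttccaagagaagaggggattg
Mrc1, chr17:82157625-82157724, plus strand: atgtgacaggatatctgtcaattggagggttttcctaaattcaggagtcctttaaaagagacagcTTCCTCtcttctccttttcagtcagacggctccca
C1qb, chr5:154407828-154407927, minus strand: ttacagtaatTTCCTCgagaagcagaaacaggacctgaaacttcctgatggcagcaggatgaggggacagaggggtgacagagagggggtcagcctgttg
C1qa, chr5:154419934-154420033, minus strand: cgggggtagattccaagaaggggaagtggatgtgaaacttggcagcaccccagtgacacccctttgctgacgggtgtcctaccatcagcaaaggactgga
The motif began 46 bases before the start in Lyz2, 27 in Cd68, 35 in Mrc1, and 90 in C1qb. A match of these letters is a description of the window and not a measured binding site.

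The levels of the members were compared with each other as deposited TPM, which are scaled by transcript length. The order of the means over the 8 samples was Lyz2, C1qc, C1qb, C1qa, Csf1r, Cd68, Aif1, Mrc1, Cd163, and Adgre1. Lyz2, the lysozyme of myeloid cells, had by far the highest level, with TPM of 84.7 and 68.4 in 1w0Gy, 72.0 and 81.9 in 1w4Gy, compared with 43.9 and 68.0 in 4m0Gy and 52.2 and 49.7 in 4m4Gy. C1qc, the gene next in order, was 10.8 to 25.6 TPM. At the low end, Adgre1 was between 0.912 and 2.63 TPM. Each gene was above the next one in all 8 samples, except that Cd163 was above Adgre1 in 6 of 8. However, the mean gap between neighbours was smaller than the larger SD over the 8 samples for C1qc and C1qb, Csf1r and Cd68, Mrc1 and Cd163, and Cd163 and Adgre1. The order also depends on which transcript stands for a gene, since the transcripts of Aif1, for example, ran from 726 to 1811 bases.

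Within each gene, samples were compared as CPM, the counts relative to library size, scaled by the trimmed mean of M-values (TMM). Csf1r, the receptor for CSF1 and IL-34 on which resident macrophages depend, was at 38.2 and 32.3 CPM in 1w0Gy, 35.8 and 33.2 in 1w4Gy, compared with 18.7 and 26.1 in 4m0Gy and 22.8 and 24.9 in 4m4Gy. Each of the 4m samples was below each of the 1w samples, while sham and irradiated samples of the same age overlapped. Adgre1, which encodes the adhesion G protein-coupled receptor known as F4/80, showed the same separation at a lower level, with 9.07 and 7.70 CPM in 1w0Gy, 7.90 and 6.36 in 1w4Gy, compared with 3.17 and 5.98 in 4m0Gy and 5.24 and 5.83 in 4m4Gy. Aif1, which encodes the actin-bundling protein IBA1, was at 10.1 and 9.15 CPM in 1w0Gy, 8.33 and 6.24 in 1w4Gy, compared with 5.23 and 7.45 in 4m0Gy and 6.04 and 5.24 in 4m4Gy. Here both 1w4Gy samples were below both 1w0Gy samples, and the ages overlapped because 4m0Gy replicate 2 exceeded 1w4Gy replicate 2.

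The products of Cd68 and Lyz2 act inside the cell or on bacteria. Cd68, a glycoprotein of the late endosome and lysosome, was at 8.69 and 7.87 CPM in 1w0Gy, 8.52 and 7.29 in 1w4Gy, compared with 5.17 and 7.92 in 4m0Gy and 4.98 and 6.47 in 4m4Gy. Once more the ages overlapped through 4m0Gy replicate 2. Lyz2 was at 119 and 98.3 CPM in 1w0Gy, 103 and 114 in 1w4Gy, compared with 62.4 and 94.4 in 4m0Gy and 75.7 and 73.9 in 4m4Gy. No 4m sample reached the lowest 1w sample. Reads of Lyz2 may be shared with the related gene Lyc2, which was listed at 0.452 to 2.21 CPM.

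Cd163 and Mrc1 encode scavenging receptors of resident macrophages, for haemoglobin bound to haptoglobin and for mannosylated glycoproteins, respectively. Cd163 was at 13.4 and 13.3 CPM in 1w0Gy, 14.7 and 13.2 in 1w4Gy, compared with 7.30 and 10.7 in 4m0Gy and 6.70 and 8.42 in 4m4Gy. Mrc1 was at 21.4 and 17.1 CPM in 1w0Gy, 16.6 and 16.6 in 1w4Gy, compared with 10.7 and 14.5 in 4m0Gy and 12.8 and 11.8 in 4m4Gy. In both genes the ages were fully separated, and in Mrc1 both 1w4Gy samples were also below both 1w0Gy samples in CPM. In TPM these 2 groups overlapped for Mrc1, with 3.01274 in 1w0Gy replicate 2 and 3.01295 in 1w4Gy replicate 2.

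C1qa, C1qb, and C1qc encode the chains that together form C1q. C1qa was at 31.5 and 23.04 CPM in 1w0Gy, 26.4 and 22.9 in 1w4Gy, compared with 12.7 and 19.5 in 4m0Gy and 18.1 and 19.5 in 4m4Gy. C1qb was at 23.9 and 20.3 CPM in 1w0Gy, 21.8 and 17.2 in 1w4Gy, compared with 10.8 and 16.6 in 4m0Gy and 14.5 and 14.7 in 4m4Gy. C1qc was at 36.5 and 27.7 CPM in 1w0Gy, 29.6 and 25.1 in 1w4Gy, compared with 15.6 and 21.8 in 4m0Gy and 22.1 and 20.1 in 4m4Gy. All 3 genes had lower values in every 4m sample than in any 1w sample. The balance between the chains hardly moved: of their summed TPM, C1qa made up 22.99% to 25.9%, C1qb 33.6% to 36.8%, and C1qc 39.0% to 42.2% in the 8 samples.

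**Figure D1:**
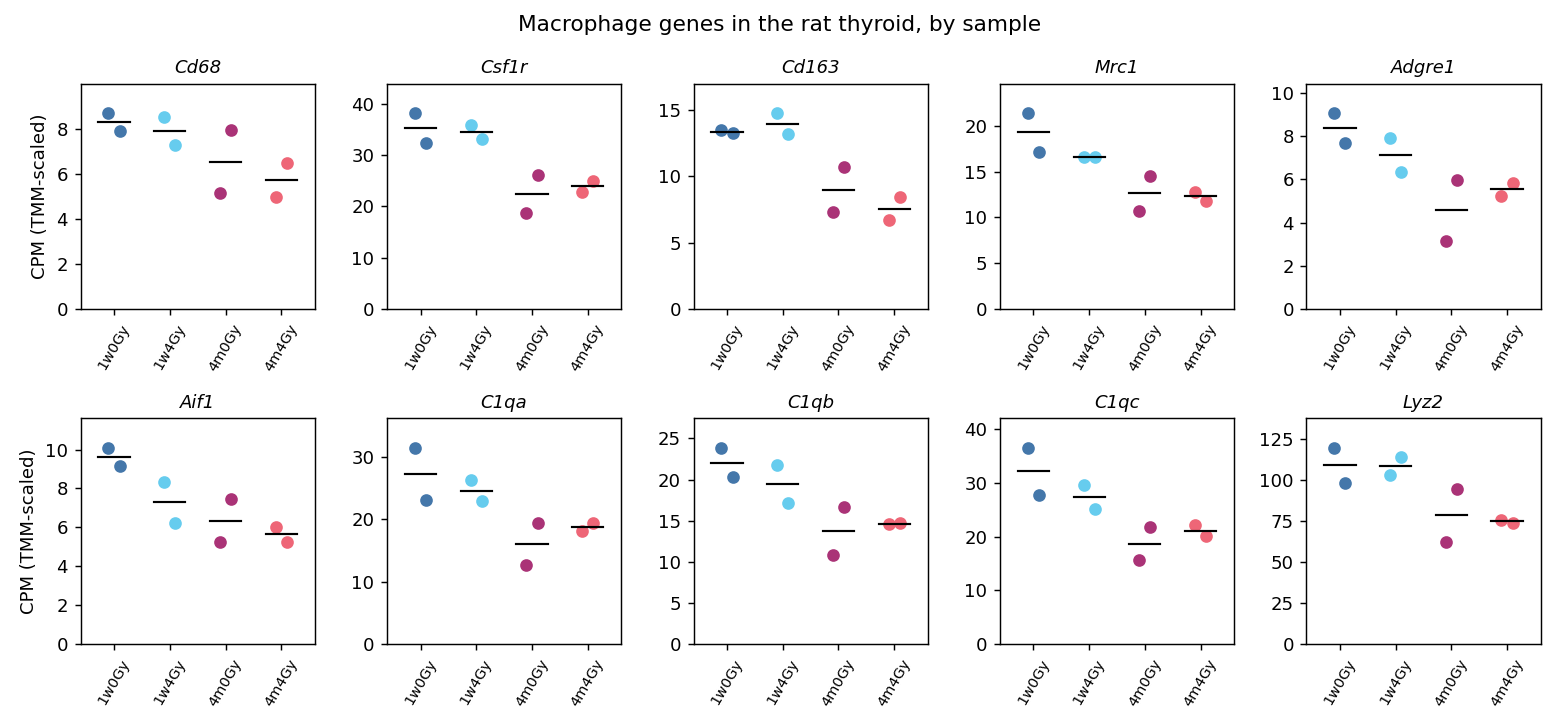
CPM (TMM-scaled, linear axis from 0) of the 10 macrophage genes in each of the 8 thyroids, with 1 point per rat and a black line at the mean of the 2 rats of a group. In 8 genes all 4m points lie below all 1w points, the exceptions being Cd68 and Aif1, and the points of 4m0Gy are far apart, with replicate 1 below replicate 2 in all 10 genes.

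The members rose and fell together from sample to sample. Replicate 1 of 1w0Gy had the highest value of the 8 samples for 9 of the 10 members, Cd163 being the exception. The lowest value was in 4m0Gy replicate 1 for 8 members and in 4m4Gy replicate 1 for Cd68 and Cd163. The 2 rats of 1w0Gy differed in 1 direction throughout, replicate 1 being the higher in 10 of 10 members. So did the 2 rats of 4m0Gy, in which replicate 1 was the lower in 10 of 10. Over the 45 pairs of members, Pearson's r of the log2 CPM across the 8 samples was between 0.78 for Cd163 with Aif1 and 0.979 for Adgre1 with C1qb, with a median of 0.898. These values come from 8 libraries that fall into 2 age groups, and all members share the same libraries. After the group means were subtracted, r was still 0.576 to 0.986. The movement was not particular to these genes. Against the mean log2 CPM of the members, summed fibroblast markers had an r of 0.976 and mast cell markers 0.922. It was 0.941 for the red blood cell gene Hba-a2 and 0.872 for adipocyte markers. The other lists of markers ran from -0.637 (C cell) to 0.724 (B lymphocyte). Ratios to Csf1r, which cancel the shared movement, overlapped between the ages for all 9 other members. The ratio of Cd163 to Csf1r, for example, was 0.393 ± 0.028 (SD, n = 4) in the 1w samples and 0.358 ± 0.052 (SD, n = 4) in the 4m samples.

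The first comparison asked whether 4 Gy at 1 week of age changed these genes 8 weeks later. With edgeR's quasi-likelihood test, 0 of the 10 members passed a Benjamini-Hochberg adjusted p of 0.05, the rule for a call here, against 0.00651% of the 15359 genes tested. At an unadjusted p under 0.05 the count was also 0, against 5.68% of all genes, and DESeq2 called 0 members against 0.143%. The log2 fold changes ran from -0.40 for Aif1 to 0.06 for Cd163, and 9 of 10 were negative. Their median was -0.17, compared with -2.6e-05 for all genes. Aif1 was at 9.62 ± 0.67 CPM in 1w0Gy and 7.29 ± 1.48 in 1w4Gy (SD, n = 2 each), with an adjusted p of 0.88 by edgeR. The 95% intervals of the 10 log2 fold changes reached from -0.85 to 0.38, so that all 10 stayed within a 2-fold change in either direction. In CPM, both irradiated samples lay below both sham samples for Aif1 and Mrc1, which is 2 of 10. Of all genes, 35.5% had both irradiated samples on the same side of both sham samples. The negative median depended on single libraries of both groups: without 1w0Gy replicate 1 it was -0.01, and without 1w0Gy replicate 2 it was -0.32. It was -0.23 without 1w4Gy replicate 1 and -0.07 without 1w4Gy replicate 2. Such fits leave a single rat in 1 of the groups, so only the size of the differences is given.

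Marker levels of other cell types were compared between the 1w groups as well. The 5 adipocyte markers were all lower in 1w4Gy in value, with a median log2 fold change of -0.64. Each of the 5 had an unadjusted p under 0.05 in edgeR (5.68% of all genes), which called 0, and DESeq2 called Plin1. Their summed TPM was 155 and 113 in 1w0Gy, against 86.9 and 91.9 in 1w4Gy. The fall was not limited to the 1w groups. With irradiation at 4 months all 5 were also negative, with a median of -0.50 and 0 at an unadjusted p under 0.05 in edgeR. The 5 fibroblast markers had negative differences with a median of -0.20, and the 5 endothelial markers had positive ones with a median of 0.23, with 1 and 4 of them, respectively, at an unadjusted p under 0.05 in edgeR and 0 called by edgeR or DESeq2. All 3 C cell markers (median -0.61), all 3 parathyroid markers (-0.61), and all 4 tested skeletal muscle genes (-0.95) were negative at 1 week, with 0 called. However, the summed TPM of the muscle genes overlapped between the groups, with 5.65 and 40.9 in 1w0Gy and 23.5 and 2.29 in 1w4Gy. The sums of the C cell markers overlapped as well. Of the 8 thyrocyte markers, 7 were positive with a median of 0.11. The part of these cell types in the values of the macrophage genes was not tested.

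In rats irradiated at 4 months of age, the members showed no common direction. edgeR called 0 of 10, against 0.0197% of the 15253 genes tested, and 0 of 10 had an unadjusted p under 0.05, against 8.39%. DESeq2 called 0, against 0.0524%. The log2 fold changes were between -0.26 for Cd163 and 0.26 for Adgre1, 5 negative and 5 positive, with a median of 0.02. For Adgre1 the means were 4.57 ± 1.99 CPM in 4m0Gy and 5.53 ± 0.41 in 4m4Gy (SD, n = 2 each), and its interval of -0.44 to 0.97 was the one that reached highest. The lowest bound was -0.79, for Cd68. Irradiated and sham samples overlapped in all 10 genes, while 39.6% of all genes had them apart. The direction in this comparison was set by the pair of sham-exposed adults. Without 4m0Gy replicate 1 all 10 log2 fold changes were negative with a median of -0.22, and without 4m0Gy replicate 2 all 10 were positive with a median of 0.30. Each of these fits leaves a single rat in the sham-exposed group, so only the size of the differences is given.

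When irradiation was tested over both ages with age as a covariate, 4 samples against 4, edgeR again called 0 of 10 (0.0128% of the 15684 genes tested), and 0 of 10 reached an unadjusted p under 0.05 (3.89%). DESeq2 called 0 (0.0765%). The median log2 fold change was -0.05, and the largest in size was that of Aif1 at -0.29 with an interval of -0.63 to 0.05. The difference between the responses at the 2 ages, which bears on the question of a neonatal-specific response, was tested as an interaction. In this test edgeR called 0 of 10 members (0% of all genes), 0 of 10 had an unadjusted p under 0.05 (9.12%), and DESeq2 called 0 (0.166%). The differences ran from -0.32 for Cd163 to 0.50 for Adgre1 with a median of 0.20, and the smallest adjusted p among the members in edgeR was 0.69, for C1qc. The intervals were wide, and those of C1qa and Adgre1 extended beyond a log2 difference of 1. Without 4m0Gy replicate 1 the median difference was -0.01, and without 4m0Gy replicate 2 it was 0.46. It was 0.07 without 1w0Gy replicate 1 and 0.09 without 1w4Gy replicate 2, and it was raised to 0.31 and 0.32 when the other replicate of those groups was left out instead. With a single rat left in 1 of the groups, only the size of these differences is given.

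**Figure D2:**
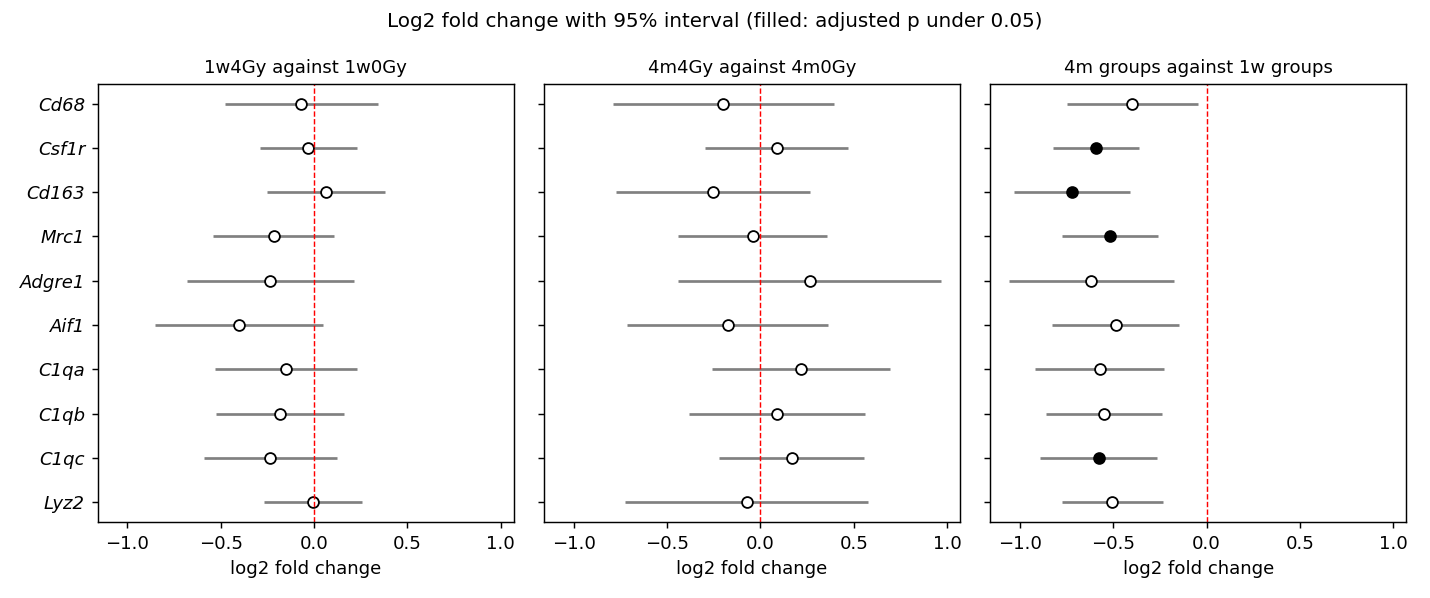
Log2 fold change (points) with its 95% interval (lines) from edgeR for the 10 members, for irradiation at 1 week, for irradiation at 4 months, and for the 4m groups against the 1w groups. Every interval in the panels for irradiation includes 0, while in the age panel all 10 points and intervals lie below 0 and the 4 filled points passed an adjusted p of 0.05.

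The thyroids of the older rats had lower levels of all 10 macrophage genes. Mean CPM was 24.2% lower for Cd68 to 39.4% lower for Cd163 in the 4m than in the 1w samples (n = 4 each), with irradiation as a covariate in the test. The median log2 fold change of the members was -0.56, compared with -0.00215 for all genes. In bulk RNA, a smaller share of macrophages in the dissected tissue and less RNA of these genes per macrophage cannot be told apart. Summed fibroblast and mast cell markers were also lower, at 59.0% and 67.5% of the 1w mean, and the part of tissue composition was not tested. edgeR called 4 of the 10 as lower, where 2.39% of all genes were called lower: Csf1r, Cd163, Mrc1, and C1qc. In 10 of 10 the unadjusted p was under 0.05, against 10.5% of all genes that were lower at this level. In 8 of 10 each 4m sample was below each 1w sample, against 6.61% of all genes. DESeq2 called 7 members, against 3.65% of all genes, adding C1qa, C1qb, and Lyz2.

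Among receptors, Csf1r fell from 34.8 ± 2.67 to 23.1 ± 3.27 CPM (SD, n = 4 each), which is -0.59 on the log2 scale with SE 0.11 and an adjusted p of 0.012 in edgeR. Cd163 fell from 13.6 ± 0.73 to 8.27 ± 1.75 CPM, by 0.72 on the log2 scale with SE 0.14 (adjusted p = 0.018 in edgeR). Mrc1 fell from 17.9 ± 2.32 to 12.5 ± 1.62 CPM, with a log2 fold change of -0.52 (SE 0.12, edgeR adjusted p = 0.031). C1qc passed the threshold narrowly, falling from 29.7 ± 4.89 to 19.9 ± 3.02 CPM with a log2 fold change of -0.58 (SE 0.14, edgeR adjusted p = 0.049). This call was lost under most alternatives, for example with upper-quartile scaling (edgeR adjusted p = 0.059) or without a filter on low counts (edgeR adjusted p = 0.051). Its partners did not pass: the log2 fold change of C1qb was -0.55 (edgeR adjusted p = 0.054) and that of C1qa -0.57 (edgeR adjusted p = 0.065). Lyz2 was at 109 ± 9.70 CPM in the 1w and 76.6 ± 13.3 CPM in the 4m samples, a log2 fold change of -0.50 with an edgeR adjusted p of 0.051. The remaining members had log2 fold changes of -0.62 (Adgre1), -0.49 (Aif1), and -0.40 (Cd68), and edgeR adjusted p of 0.11, 0.10, and 0.19.

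Within each dose the direction was the same. In the sham-exposed rats alone the median log2 fold change of the members was -0.63, and edgeR called 0 of 10 (0.54% of all genes lower), with 8 of 10 lower at an unadjusted p under 0.05 (8.88%). In the irradiated rats alone it was -0.42, and edgeR called 1 of 10 (0.38%), Lyz2 with an adjusted p of 0.044, while 7 of 10 were lower at an unadjusted p under 0.05 (7.52%). When any 1 of the 8 samples was left out, all 10 log2 fold changes remained negative, with medians between -0.41 and -0.64, and edgeR called 1 to 5 members. Csf1r was called in all 8 of these fits. The fewest calls, Csf1r alone, were made without 4m4Gy replicate 1, and 2 were made without 1w0Gy replicate 1, 1w0Gy replicate 2, 1w4Gy replicate 1, 4m0Gy replicate 1, or 4m4Gy replicate 2, namely Csf1r and Cd163.

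Summed markers of several other cell types also differed with age. The summed TPM of the 5 fibroblast markers was 506 to 647 in the 1w samples and 282 to 374.96 in the 4m samples, with no overlap, and the 4m mean was 59.0% of the 1w mean. For the 10 macrophage genes, the summed TPM was 142 to 176 in the 1w and 85.4 to 131 in the 4m samples, and the 4m mean was 68.4% of the 1w mean. Of the fibroblast genes, 3 of 5 were called lower by edgeR and 5 of 5 by DESeq2, against 2.39% and 3.65% of all genes. The 3 called by edgeR were Col1a1 and Col1a2, which encode the chains of type I collagen, with log2 fold changes of -2.51 and -1.83, and the proteoglycan Lum with -0.65. Mast cell markers (6 of 6 in the table) summed to 21.2 to 31.0 TPM in the 1w and 15.0 to 20.1 TPM in the 4m samples, again without overlap, and edgeR called 0 of 6 with 5 at an unadjusted p under 0.05, while DESeq2 called Cpa3. The B lymphocyte markers (5 of 5) summed to 1.45 to 2.32 and 0.777 to 1.38 TPM, and the only red blood cell gene matched of 4, Hba-a2, was at 626 to 750 and 389 to 495 TPM. Adipocyte markers (5 of 5) summed to 86.9 to 155 and 49.6 to 94.96 TPM, with overlap, and the adiponectin gene Adipoq was called lower by edgeR (log2 fold change -0.97), while DESeq2 called Adipoq, Plin1, and Cidec. The sum of the 3 C cell markers was higher in the older rats, with 3197 to 5716 TPM in the 1w and 6756 to 9229 TPM in the 4m samples, while 1 of the 3, Chga, had a log2 fold change of -0.02. No marker of the fibroblast, mast cell, adipocyte, or C cell lists was at 0. The part of these cell types in the age difference of the macrophage genes was not tested.

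In contrast, the summed levels of the ages overlapped for markers of thyrocytes, endothelium, monocytes and neutrophils, dendritic cells, T lymphocytes, parathyroid, and skeletal muscle. The 9 monocyte and neutrophil markers summed to 15.5 to 19.2 TPM in the 1w and 15.8 to 17.8 TPM in the 4m samples, most of it from Plac8 (log2 fold change -0.01). Of the 7 genes of this list that passed the filter, 6 had negative age differences and the median was -0.41, with 0 called by edgeR or DESeq2 and 1 at an unadjusted p under 0.05 in edgeR. Elane, the neutrophil elastase gene, was at 0 in all 8 samples. Endothelial markers summed to 185 to 233 and 170.2 to 199 TPM.

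**Figure D3:**
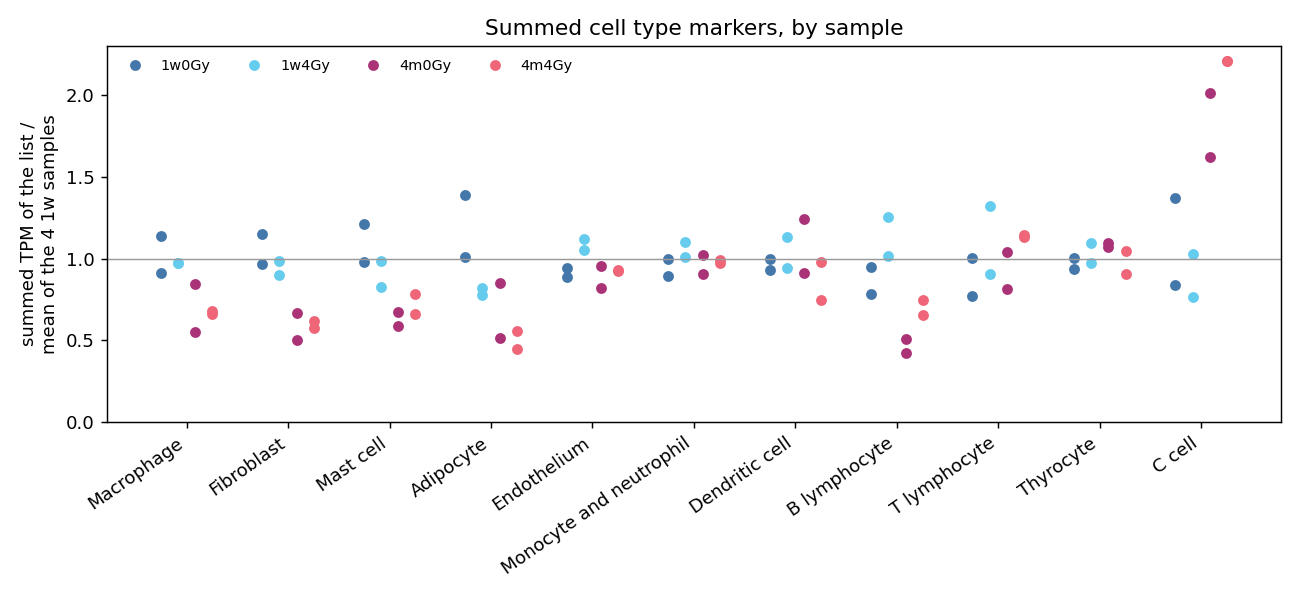
Summed TPM of each list of cell type markers in each thyroid, divided by the mean of the 4 1w samples (linear axis from 0), with 1 point per rat. Macrophage, fibroblast, mast cell, and B lymphocyte sums of the 4m samples lie below those of the 1w samples, C cell sums lie above, and the other lists plotted overlap.

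The genes whose pattern over the 8 samples was most like the mean log2 CPM of the members were sought among 14386 other genes whose mean was 1 CPM or more. The highest Pearson r was that of AABR07044388.2, at 0.997. It was followed by Cpxm1 (0.995), Lum (0.989), Prrx1 (0.988), Col6a1 (0.984), Gsn (0.984), Cav2 (0.982), Lrp1 (0.980), Kcnab1 (0.979), and Adgra2 (0.979). Spearman's rho was 0.976 or 1.0 for each of them, and without 4m0Gy replicate 1 and 1w0Gy replicate 1 their r stayed between 0.954 and 0.993. Lum and Col6a1 encode extracellular matrix proteins, Prrx1 is a transcription factor of mesenchymal cells, and Lrp1 is an endocytic receptor that macrophages and fibroblasts both use. Only Lum was in one of the marker lists. These r describe 8 libraries in 2 age groups and carry no test.

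Genes that work with the members were examined in 6 lists. In the irradiation comparisons, edgeR and DESeq2 both called 0 of their 69 or 70 tested genes. An unadjusted p under 0.05 in edgeR was reached by 3 at 1 week, 4 at 4 months, 2 over both ages, and 0 in the interaction. Of all genes, 5.68%, 8.39%, 3.89%, and 9.12% reached it, respectively. With age, edgeR called 4 of 70 as lower and 0 as higher, where 2.39% of all genes were called lower and 1.87% higher. An unadjusted p under 0.05 in edgeR was reached by 25 of 70, against 20.5% of all genes in either direction. DESeq2 called 8 of 70, against 6.62% of all genes, and 3 of these 8, the lysosomal genes Ctsb, Ctsl, and Lamp1, had positive differences (0.21, 0.32, and 0.22 on the log2 scale). In the CSF1 axis and lineage factors, 1 of 10 tested genes was called lower, and the median log2 fold change was -0.13. This gene was Csf2rb, the shared signalling chain of the receptors for GM-CSF, IL-3, and IL-5, at 4.75 ± 0.83 CPM in the 1w and 2.86 ± 0.73 CPM in the 4m samples (SD, n = 4 each; edgeR adjusted p = 0.045). Spi1, which encodes PU.1, was at 4.76 ± 0.81 and 2.94 ± 0.95 CPM, with all 4m samples below all 1w samples and an edgeR adjusted p of 0.14. Cebpb, a transcription factor gene, was at 6.60 ± 1.70 and 7.25 ± 0.95 CPM.

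Among phagocyte receptors and signalling genes, 17 of 18 had negative age differences, against 50.7% of all genes, with a median of -0.34. At an unadjusted p under 0.05 in edgeR 6 were lower, against 10.5% of all genes, and 0 were called by either edgeR or DESeq2. Ccr2, the chemokine receptor of recruited monocytes, was at 3.45 ± 0.90 CPM in the 1w and 2.51 ± 0.79 CPM in the 4m samples, with a log2 fold change of -0.47 (edgeR adjusted p = 0.32). The pan-leukocyte membrane gene Cd53 had a log2 fold change of -0.37, and the Toll-like receptor genes Tlr4 and Tlr2 had log2 fold changes of -0.23 and -0.16.

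Of the resident macrophage scavenger and clearance genes, 2 of 14 were called lower with age by edgeR, against 2.39% of all genes, and the median was -0.40. Stab1, a scavenger receptor of sinusoidal endothelium and of resident macrophages, fell from 46.6 ± 4.46 to 30.8 ± 3.36 CPM (SD, n = 4 each; edgeR adjusted p = 0.0070). Axl, a receptor for the uptake of dying cells that fibroblasts and endothelium also express, fell from 42.7 ± 4.27 to 32.1 ± 2.29 CPM (edgeR adjusted p = 0.022). F13a1, the coagulation factor XIII A chain of tissue macrophages, had the log2 fold change of largest size in this list at -0.83, with an edgeR adjusted p of 0.10, and it was called by DESeq2 together with Stab1 and Axl. Trem2 was near the limit of detection at 0.425 ± 0.221 and 0.566 ± 0.258 CPM.

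The lysosomal list had a median of -0.03 with age, and 1 of 11 genes was called lower by edgeR, against 2.39% of all genes. Ctss, a cathepsin of antigen-presenting cells, fell from 22.5 ± 2.28 to 13.2 ± 1.47 CPM, or by 0.77 on the log2 scale with SE 0.11 (edgeR adjusted p = 0.0042). The cathepsin gene Ctsl, which thyrocytes also use to cleave thyroglobulin, was at 623 ± 47.3 CPM in the 1w and 783 ± 96.8 CPM in the 4m samples (log2 fold change 0.32, edgeR adjusted p = 0.059), and DESeq2 called it as higher. Ctsz and Hexa had log2 fold changes of 0.07 and 0.12.

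For the chemokines and cytokines, edgeR and DESeq2 called 0 of 10 tested genes with age, and the median was -0.16. An unadjusted p under 0.05 in edgeR was reached by 1, against 20.5% of all genes in either direction. Ccl2, the ligand of CCR2, had a log2 fold change of -1.10 with irradiation at 1 week (edgeR unadjusted p = 0.014 in the fit across all genes, adjusted p = 0.85) and of -0.06 at 4 months, and the interaction had an edgeR adjusted p of 0.55. Ccl7 and Il10 had log2 fold changes of -1.15 and -0.60 with irradiation at 1 week, both with an edgeR adjusted p of 0.88 or above, and Ccl3 of 0.87. Ccl7 was near the limit of detection, at 0.971 and 0.695 CPM in 1w0Gy and 0.684 and 0.0618 in 1w4Gy. Its fall rested largely on 1w4Gy replicate 2. Ccl3 was also low, at 0.216 and 0.463 CPM in 1w0Gy and 0.622 and 0.618 in 1w4Gy. It passed the filter only in the comparison at 1 week.

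Of the partners of C1q in the classical pathway, 7 of 7 tested genes had negative age differences, against 50.7% of all genes, with a median of -0.27. Of these, edgeR and DESeq2 called 0, and 3 had an unadjusted p under 0.05 in edgeR, against 10.5% of all genes that were lower at this level. C3 was at 8.49 ± 3.93 CPM in the 1w and 4.76 ± 1.45 CPM in the 4m samples, with overlapping values, and its receptor gene C3ar1 was at 2.996 ± 0.69 and 2.36 ± 0.68 CPM. The near-identical copies C4a and C4b, whose reads cannot be split with certainty, had log2 fold changes of -0.25 and -0.22.

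**Figure D4:**
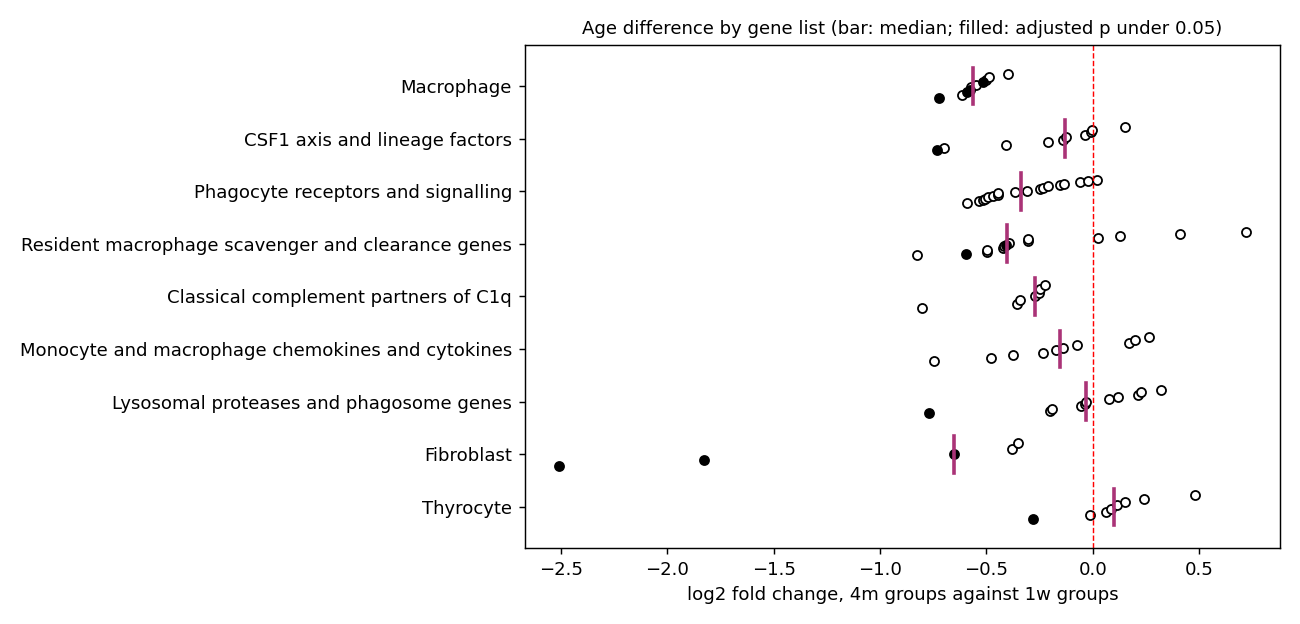
Log2 fold change of the 4m against the 1w groups for each tested gene (points) of the macrophage genes, the 6 lists of genes that work with them, and the fibroblast and thyrocyte markers, with the median of each list as a bar. The medians are -0.56 for the macrophage genes, -0.65 for the fibroblast markers, and between -0.40 and -0.03 for the 6 lists, and filled points passed an adjusted p of 0.05.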

How the data were processed

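Thyroid RNA was sequenced as directional paired-end libraries on a DNBSEQ-G400 instrument. The authors mapped the reads with HISAT2 2.2.1 and counted them with featureCounts 2.0.0, and the deposited table gives raw counts per Ensembl transcript. The deposited TPM were made by the authors from those counts and transcript lengths. The genome build is not given in the sources used here. Transcripts of 1 gene often hold the same reads, so the transcript with the highest summed count was taken for each gene. A tie was resolved by the first transcript listed.

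Counts were tested in R 4.3.3 with edgeR 4.0.16 (TMM, filterByExpr, robust quasi-likelihood test) and Benjamini-Hochberg adjustment over all genes tested. Irradiation at each age was fitted on its own 4 samples, and the other comparisons on all 8. Intervals are 95% and use the test's own degrees of freedom. Values per gene are TMM-scaled CPM, and log2 CPM used a prior count of 2. Replicates were different rats, and their counts differed by more than sampling noise in every group (chi-square per degree of freedom 7.97 to 16.2). With 2 rats per group, the spread between rats limits the precision. The scripts were tested on simulated data.

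Alternatives were DESeq2 1.42.0, limma 3.58.1 on log2(TPM + 1), DESeq2 size factors or the upper quartile, other filters on low counts (none, or 10 counts required of all samples), the replicate block, the longest transcript or the sum over transcripts, 1 dose only, and leaving out each sample. Chosen after seeing the data were edgeR without robust estimation, the fit of irradiated samples only, and the limma and transcript alternatives for the counts of calls.

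All 10 members are named. From each list at most 4 genes are named, those called in any comparison first and then those with the largest irradiation difference at 1 age, and the 10 genes most like the members by Pearson's r. One gene that this rule selects is not reported here. The members and lists were chosen with earlier results of these data known. List genes with no row under their symbol (Maf, Cebpa, Tlr7, Cybb, Timd4, Cd36, Lamp2, C2, C5ar1, Myh1, Hba-a1, Hbb, and Alas2) were not analysed here.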

Additional observations from a re-analysis of the deposited data

How the results depend on the processing

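The count of members called with age was 4 and depended on the fit. It was 7 with DESeq2, 2 with limma on log2(TPM + 1), 0 in the sham-exposed rats alone, 1 in the irradiated rats alone, and 1 to 5 when a sample was left out. The cause was not tested. The other alternatives gave 3 to 5, where 329 of 16116 genes (sum over transcripts) to 434 of 22179 (no filter) were called lower. In all of these fits the 10 age differences were negative. In the 4 irradiation comparisons, 0 members were called under every alternative run.

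Replicates share only a number: the difference between replicates 1 and 2 correlated between groups with r from -0.231 to 0.152. With the replicate block, 3 members were called with age, where 387 of 15684 genes were called lower. C1qc was lost at an adjusted p of 0.062 in edgeR. In the other comparisons 0 members were called. At 1 week 2 members were lower at an unadjusted p under 0.05 in edgeR, as were 596 of all 15359 genes.

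Signs of small irradiation differences turned. At 1 week, the log2 fold change of Lyz2 (-0.0063) was 0.012 with limma and 0.0021 with the longest transcript. Over both ages, that of Adgre1 (-6.6e-05) was 0.0017 with DESeq2, 0.0013 without a filter, 0.0010 with at least 10 counts in every sample, 0.0027 with the replicate block, 0.0029 with the longest transcript, and 0.012 with the sum over transcripts; the cause was not tested.

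Leaving out 1 sample turned the sign of several log2 fold changes. At 1 week the ranges were -0.18 to 0.039 (Cd68), -0.14 to 0.099 (Csf1r), -0.018 to 0.14 (Cd163), -0.35 to 0.097 (C1qa), and -0.14 to 0.14 (Lyz2). At 4 months they were -0.47 to 0.14 (Cd68), -0.13 to 0.35 (Csf1r), -0.50 to 0.041 (Cd163), -0.24 to 0.19 (Mrc1), -0.12 to 0.80 (Adgre1), -0.41 to 0.098 (Aif1), -0.056 to 0.55 (C1qa), -0.19 to 0.43 (C1qb), -0.055 to 0.43 (C1qc), and -0.34 to 0.25 (Lyz2). Over both ages they were -0.22 to 0.0075 (Cd68), -0.067 to 0.11 (Csf1r), -0.15 to 0.055 (Cd163), -0.19 to 0.11 (Adgre1), -0.11 to 0.17 (C1qa), -0.18 to 0.044 (C1qb), -0.16 to 0.094 (C1qc), and -0.14 to 0.093 (Lyz2). In the interaction they were -0.40 to 0.21 (Cd68), -0.10 to 0.38 (Csf1r), -0.024 to 0.41 (Mrc1), -0.0014 to 0.50 (Aif1), -0.0044 to 0.61 (C1qb), and -0.33 to 0.26 (Lyz2). In these fits the lone sample left in a group is assumed to vary like the others.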

Other observations

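Among the dendritic cell markers, whose summed TPM overlapped between the ages, Clec9a, a receptor of the dendritic cells that take up dead cells, was lower in the 4m groups with a log2 fold change of -1.61 (edgeR adjusted p = 0.018). Xcr1, the chemokine receptor of the same cells, had a log2 fold change of -1.64 (edgeR adjusted p = 0.17), and Zbtb46, a transcription factor of conventional dendritic cells that endothelium also expresses, one of 0.32. These are genes of low count, and 4 of the 6 dendritic cell markers passed the filter. Clec9a and Xcr1 passed it in the comparison at 1 week but not in the one at 4 months. They entered the age test through the group where they were higher, which favours a fall. Their values are therefore a description and no support for a difference with age. Of the endothelial markers, only Cdh5, which encodes VE-cadherin, was called with age by edgeR (log2 fold change -0.44, adjusted p = 0.0030). Of the thyrocyte markers, edgeR called only Tshr, the receptor for thyroid-stimulating hormone, with a log2 fold change of -0.28 (adjusted p = 0.037), and of the C cell markers only Calca, the gene of calcitonin, with 1.19 (adjusted p = 0.026).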
